A study of Homo sapiens with 4 samples.

Results

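The genes described here encode mTOR, a protein kinase that sets cell growth, together with 9 proteins that sit in its complexes or control its activity. They are DEPTOR, MTOR, RPTOR, RICTOR, MLST8, AKT1S1, TSC1, TSC2, RHEB and DDIT4. They were taken by symbol, as the rows of the deposited count table whose Ensembl identifier carries that symbol. The 10 genes are 10 of 78932 gene rows in the table, and all 10 were among the 18680 genes with enough reads to be tested.

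RNA was sequenced from RPMI 8226, a single established human cell line derived from multiple myeloma, a cancer of plasma cells. One group of 2 libraries came from cells transfected with a locked nucleic acid (LNA) antisense oligonucleotide against the long noncoding RNA LINC01432, at 50 nM and for 72 h. The other group of 2 libraries came from cells given a Control LNA for the same time, whose dose the labels do not give separately. An LNA antisense oligonucleotide is a short modified DNA strand that lowers the RNA it pairs with, and the question put by the design is what changes in the transcriptome when LINC01432 is lowered in this way. The sample titles name a single targeting oligonucleotide and a single control one. Effects of lowering LINC01432 and other effects of that oligonucleotide therefore cannot be told apart here.

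mTOR works in a pair of complexes. Both hold the subunit MLST8 and the inhibitor DEPTOR; mTORC1 is built on the scaffold RPTOR and is also restrained by AKT1S1 (PRAS40), and mTORC2 is built on RICTOR. mTORC1 is switched on at the lysosome by the small GTPase RHEB, which the TSC1-TSC2 complex holds off, and DDIT4 (REDD1) is a stress-induced protein that lowers mTORC1 activity through TSC2. In multiple myeloma DEPTOR is known to be highly expressed in a share of tumours, in particular those with high MAF, and to keep AKT signalling active there.

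The libraries held 20873393 and 26185342 gene counts in the LINC01432 LNA group, and 29161298 and 24493148 in the Control LNA group. Each of the 10 genes had between 929 and 7963 counts in every library, so counting error is small for all of them. Levels are given in CPM, the count of a gene scaled to a common library size with edgeR's TMM factors. LINC01432 itself had 9.0 and 9.9 CPM in LINC01432 LNA libraries, against 20.5 and 17.9 CPM in Control LNA libraries, a log2 fold change of -1.02 ± 0.11 (SE; edgeR quasi-likelihood test with Benjamini-Hochberg adjustment, adjusted p = 0.000228, n = 2 each). Plasma cell markers summed to 2990 and 3410 CPM in LINC01432 LNA libraries and to 3400 and 3620 CPM in Control LNA libraries. Of the 11 plasma cell markers, CD38 rose and TNFRSF17 and XBP1 fell, XBP1 not after a GC correction (-0.23). That is 27.3% of these markers, where 11.9% of all tested genes were called. After GC correction 1 marker was higher and 2 were lower, among them a marker other than TNFRSF17 and XBP1. The T and NK cell, myeloid, and fibroblast and endothelial markers each summed to at most 7.33 CPM in any library, with LYZ and S100A8 at 0 in each. COL1A1 was called higher, but not after GC correction. Epithelial markers, led by EPCAM and with KRT19 at 0, summed to 99.8 and 99.2 CPM in LINC01432 LNA libraries and to 118 and 114 CPM in Control LNA libraries; the part of any of these in the results was not tested. Nothing in the labels ties the libraries of a group to separate cultures; the p-values thus reflect library-to-library spread that could be purely technical.

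Of the 10 genes, 4 were called changed at an adjusted p under 0.05: MLST8 and DDIT4 were higher and DEPTOR and TSC1 were lower in LINC01432 LNA cells. MTOR, RPTOR, RICTOR, AKT1S1, TSC2 and RHEB were not called. Over all tested genes, 11.9% were called in either direction, 7.5% higher and 4.37% lower. Among genes with a mean of at least 40 CPM, a range that holds all 10, the share called was 18.6%. The values of both groups did not overlap for 8 of the 10 genes, the exceptions being RICTOR and TSC2; the same held for 54.1% of all tested genes. After a correction for GC content, described with MLST8 below, 1 of the 10 was higher and 2 were lower, with 10.1% of all genes called. DEPTOR moved furthest of the 10, and it was called under each of 15 other ways of processing the counts.

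**Figure D1:**
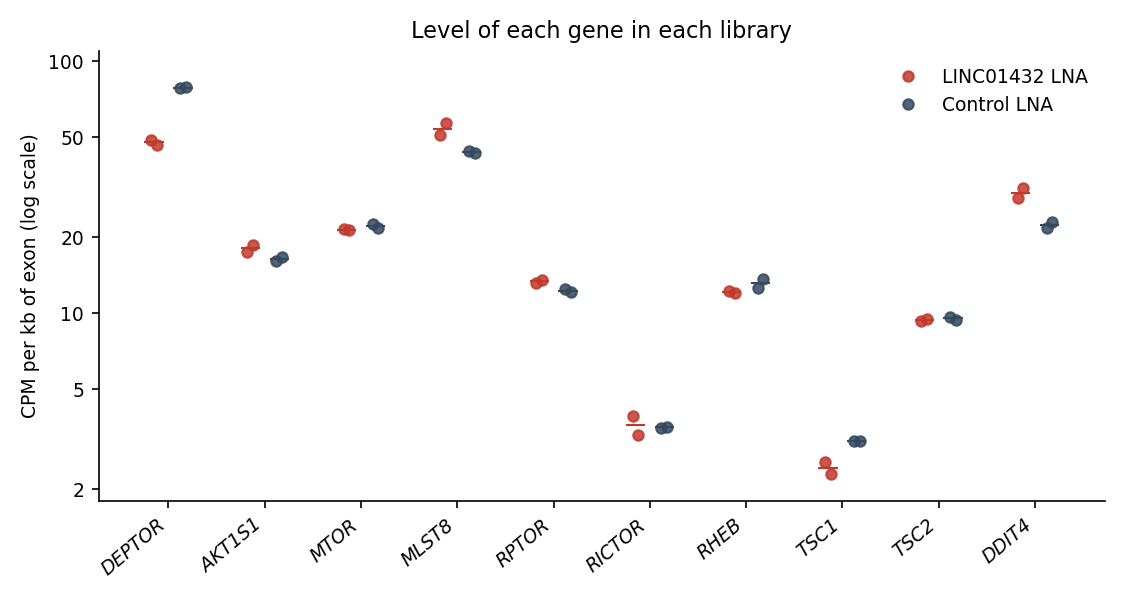
Level of each of the 10 genes in every library, in CPM per kb of exon on a log axis, with LINC01432 LNA libraries left of Control LNA libraries; points are single libraries and short bars are group means. DEPTOR sits at 48.7 and 46.7 CPM per kb in LINC01432 LNA libraries, below both Control LNA libraries at 78.0 and 78.7, while MTOR keeps between 21.3 and 22.6 in all 4.

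DEPTOR, which binds mTOR and inhibits it in both complexes, had 128 and 122 CPM in LINC01432 LNA libraries, against 204 and 206 CPM in Control LNA libraries. Both LINC01432 LNA libraries lay below both Control LNA libraries, and the gap between groups was many times the gap within either. In raw counts these were 2739 and 3091 in LINC01432 LNA libraries, against 5953 and 5062 in Control LNA libraries. The means were 125 ± 3.69 CPM in LINC01432 LNA cells and 205 ± 1.32 CPM in Control LNA cells (SD, n = 2 each). DEPTOR therefore stood at 60.9% of its Control LNA level, with a 95% interval of 54.1% to 68.5%. Its log2 fold change was -0.72 ± 0.08 (SE; edgeR quasi-likelihood test with Benjamini-Hochberg adjustment, adjusted p = 0.000197).

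An exact permutation test of 2 libraries against 2 cannot give a two-sided p below 0.333, and each call therefore depends on edgeR's pooling of the spread over genes. In bulk RNA, fewer cells that express a gene and less of its RNA per cell cannot be told apart. By the size of its fall DEPTOR was number 91 of the 817 genes called lower. Most of the larger falls were in genes of lower abundance: among the 146 called-lower genes with a mean of at least 100 CPM, DEPTOR had the second largest fall. Its log2 fold change over 15 alternatives ran from -0.76 to -0.63, with adjusted p between 5.8e-22 and 0.00109. Without Control LNA library 1 it was -0.74 (adjusted p = 0.000821), and without Control LNA library 2 it was -0.72 (adjusted p = 0.00109), both by edgeR.

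The DEPTOR gene (ENSG00000155792) spans 119873717 to 120050913 on the plus strand of chromosome 8 in GRCh38. Its exons share 9.61% of their bases with a noncoding gene on the opposite strand, DEPTOR-AS1, and the strand setting of the counting is not given in the sources used here. DEPTOR-AS1 had 28 and 29 counts in LINC01432 LNA libraries, against 34 and 41 counts in Control LNA libraries. DEPTOR-AS1 was not called (log2 fold change -0.20, edgeR adjusted p = 0.743). How reads of the shared bases were counted is not known, and their part in the DEPTOR value was not tested.

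Within 1 Mb of DEPTOR, 11 other genes were tested and 9 of them were not called. The first tested gene beyond the 3′ end of DEPTOR, the noncoding ENSG00000254343, lies 1267 bases further on the same strand, at 120052180 to 120056201. It had 4.99 and 3.21 CPM in LINC01432 LNA libraries, against 9.72 and 9.66 CPM in Control LNA libraries. Both LINC01432 LNA libraries were below both Control LNA libraries, and the gene fell by 1.26 on the log2 scale (SE 0.18, edgeR adjusted p = 0.00112). The other called neighbour, ENPP2, encodes autotaxin, a secreted enzyme that makes lysophosphatidic acid; it rose, from a low level. ENPP2 had 27 and 30 counts in LINC01432 LNA libraries, against 10 and 11 counts in Control LNA libraries (log2 fold change 1.63, edgeR adjusted p = 0.0149); without Control LNA library 1 it was at 1.42 and not called. The neighbours upstream of DEPTOR on the other strand, TAF2, a subunit of the general transcription factor TFIID, and DSCC1, a replication factor subunit, were not called (log2 fold changes -0.13 and -0.23). MRPL13 and MTBP, further downstream, were not called either, at 0.02 and -0.27. ENSG00000254343 and ENPP2 were singled out after their values were seen.

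**Figure D2:**
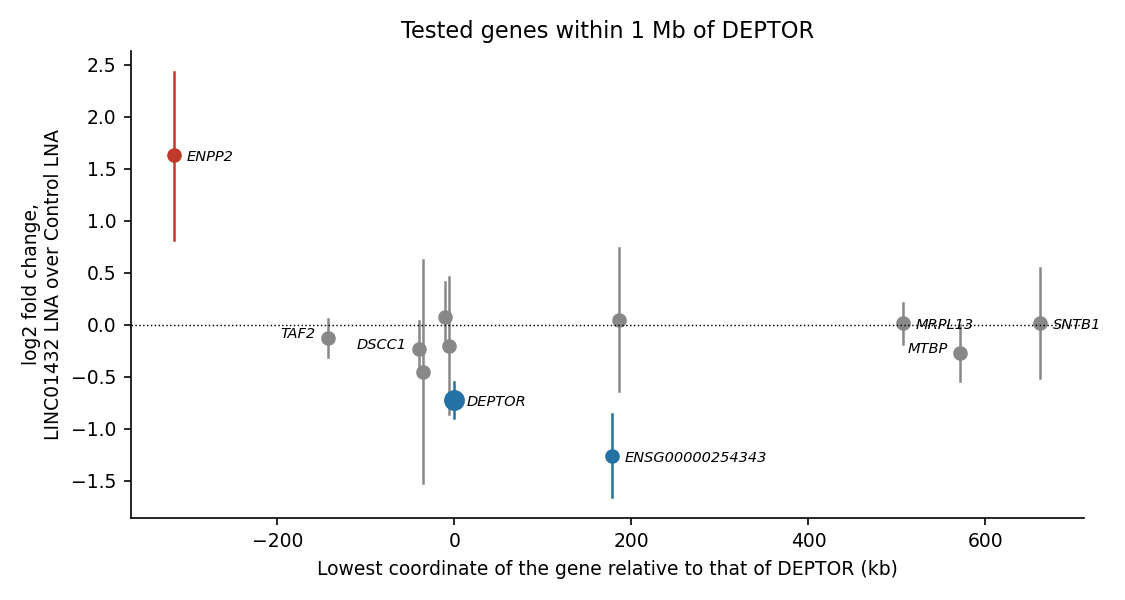
Log2 fold change (LINC01432 LNA minus Control LNA) of DEPTOR and of the 11 other tested genes within 1 Mb, against the distance of each gene's lowest coordinate from that of DEPTOR in kb; vertical lines are 95% intervals, red marks a gene called higher, blue one called lower and grey one not called. DEPTOR at -0.72 and the noncoding gene just beyond its 3′ end at -1.26 are lower, ENPP2 at 1.63 is higher, and the other 9 were not called.

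Among 10125 tested genes with a symbol and a mean of at least 5 CPM, 5 were nearest to DEPTOR over the 4 libraries, by Euclidean distance between log2 CPM profiles centred on the Control LNA mean. They were REEP1, an endoplasmic reticulum shaping protein (distance 0.023), CASTOR2 (0.039), the receptor tyrosine phosphatase PTPRM (0.058), the calmodulin-dependent kinase CAMK1D (0.059) and the glycosyltransferase GALNT17 (0.063). With only 4 libraries in 2 groups, the distance mainly picks genes with a fall of the same size and tight replicates. REEP1 had 10.5 and 10.1 CPM in LINC01432 LNA libraries, against 16.9 and 17.2 CPM in Control LNA libraries. CASTOR2, a protein related to the arginine sensor that acts upstream of mTORC1, is itself part of the amino acid sensing list below.

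The kinase and its scaffolds did not pass the test. MTOR, the catalytic subunit of both complexes (chromosome 1, 11106535 to 11262507, minus strand), had 262 and 258 CPM in LINC01432 LNA libraries, against 273 and 264 CPM in Control LNA libraries. Its LINC01432 LNA values were both lower, by less than the spread of the pooled test (log2 fold change -0.05, 95% interval -0.22 to 0.12, edgeR adjusted p = 0.768). RPTOR, the substrate-recruiting scaffold of mTORC1 (chromosome 17, 80544819 to 80966371, plus strand), had 136 and 140 CPM in LINC01432 LNA libraries, against 128 and 125 CPM in Control LNA libraries. Its groups were separate but close, with a log2 fold change of 0.12 and an interval of -0.04 to 0.29 (edgeR adjusted p = 0.357). RICTOR, the scaffold of mTORC2 (chromosome 5, 38937919 to 39074408, minus strand), had 52.8 and 44.5 CPM in LINC01432 LNA libraries, against 47.5 and 48.1 CPM in Control LNA libraries. The LINC01432 LNA libraries lay on either side of the controls, and the log2 fold change was 0.02 with an interval of -0.18 to 0.23 (edgeR adjusted p = 0.913).

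MLST8, the WD40 subunit that both complexes share (chromosome 16, 2204248 to 2209416, plus strand), had 220 and 245 CPM in LINC01432 LNA libraries, against 191 and 187 CPM in Control LNA libraries. Both LINC01432 LNA libraries were above both controls, and the means were 232 ± 18.3 CPM in LINC01432 LNA cells and 189 ± 3.02 CPM in Control LNA cells (SD, n = 2 each). The log2 fold change was 0.30 ± 0.08 (SE; edgeR adjusted p = 0.0385). This call depended on the processing. In these libraries the fold change of a gene moved with the GC content of its longest transcript. The tenth of tested genes with the lowest GC content (up to 38.9%) had a median log2 fold change of -0.13. The tenth with the highest (61.3% and above) had 0.37. The longest transcript of MLST8 is 64.5% GC, and after a correction for GC content its log2 fold change was -0.08 (edgeR adjusted p = 0.535). MLST8 was also not called with DESeq2 (adjusted p = 0.0748), with RLE scaling (adjusted p = 0.0512), without Control LNA library 1 (0.30, adjusted p = 0.504) or without Control LNA library 2 (0.27, adjusted p = 0.561). Over 15 alternatives its adjusted p ran between 4.77e-09 and 0.561.

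AKT1S1, which encodes PRAS40, an inhibitor of mTORC1 that AKT phosphorylates (chromosome 19, 49869033 to 49878459, minus strand), had 100 and 107 CPM in LINC01432 LNA libraries, against 92.3 and 95.6 CPM in Control LNA libraries. Its groups did not overlap, but the difference was small and did not pass the test (log2 fold change 0.15, interval -0.03 to 0.32, edgeR adjusted p = 0.285). It passed in the fit without LINC01432 LNA library 1 (0.18, adjusted p = 0.0175), with a range over 15 alternatives of 0.0175 to 0.977. AKT1S1 is also GC-rich, at 60.4%, and its GC-corrected log2 fold change was -0.02. Among the 10 genes, then, the inhibitor DEPTOR was lower in LINC01432 LNA cells while the other direct inhibitor, AKT1S1, was not called; the difference between them was not tested.

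**Figure D3:**
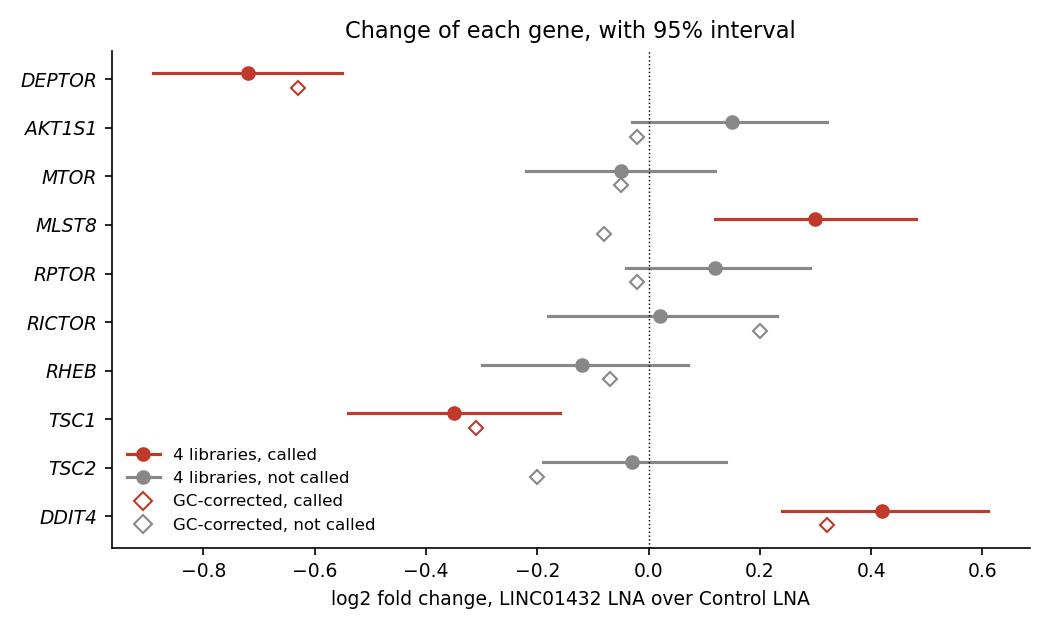
Log2 fold change (LINC01432 LNA minus Control LNA) of the 10 genes, as circles with 95% intervals, and after correction for GC content, as open diamonds; red marks called values and grey those not called. DEPTOR (-0.72 and -0.63), TSC1 (-0.35 and -0.31) and DDIT4 (0.42 and 0.32) keep their direction after the correction, while MLST8 is at 0.30 and -0.08.

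Upstream of mTORC1, TSC1 was called lower while TSC2 and RHEB were not called, and the differences between these genes were not tested. TSC1, which stabilises TSC2 (chromosome 9, 132891348 to 132946874, minus strand), had 45.4 and 40.5 CPM in LINC01432 LNA libraries, against 54.6 and 54.9 CPM in Control LNA libraries. Both LINC01432 LNA libraries were lower, with means of 42.9 ± 3.41 CPM in LINC01432 LNA cells and 54.8 ± 0.183 CPM in Control LNA cells (SD, n = 2 each). TSC1 fell by 0.35 on the log2 scale (SE 0.09, edgeR adjusted p = 0.0212), to 78.3% of the Control LNA level. The call was lost without Control LNA library 1 (-0.37, adjusted p = 0.222) and without Control LNA library 2 (-0.36, adjusted p = 0.218; range over 15 alternatives 5.39e-07 to 0.222), where the fit takes its spread from the LINC01432 LNA pair alone.

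TSC2, the subunit with GTPase-activating activity toward RHEB (chromosome 16, 2047465 to 2089487, plus strand), had 182 and 186 CPM in LINC01432 LNA libraries, against 190 and 185 CPM in Control LNA libraries. These values overlapped, with a log2 fold change of -0.03 and an interval of -0.19 to 0.14 (edgeR adjusted p = 0.884). The 3′ end of TSC2 overlaps PKD1, the polycystin-1 gene, which runs on the opposite strand. PKD1 had 86.2 and 84.7 CPM in LINC01432 LNA libraries, against 35.6 and 39.7 CPM in Control LNA libraries, and was called higher (log2 fold change 1.18, edgeR adjusted p = 1.47e-05; 0.66 after GC correction). PKD1 and NTHL1 together overlap 6.01% of the exonic bases of TSC2, so reads of PKD1 may reach the TSC2 count if strand was not used; their part in it was not tested.

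RHEB, the GTPase that activates mTORC1 (chromosome 7, 151466012 to 151520120, minus strand), had 43.3 and 42.3 CPM in LINC01432 LNA libraries, against 44.4 and 48.5 CPM in Control LNA libraries. Both LINC01432 LNA values were slightly below both controls, within the spread of the test (log2 fold change -0.12, interval -0.30 to 0.07, edgeR adjusted p = 0.434).

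DDIT4, the stress-induced inhibitor of mTORC1 (chromosome 10, 72273920 to 72276036, plus strand), had 59.1 and 64.4 CPM in LINC01432 LNA libraries, against 44.6 and 47.5 CPM in Control LNA libraries. Both LINC01432 LNA libraries were above both controls, and the means were 61.7 ± 3.79 CPM in LINC01432 LNA cells and 46.1 ± 2.00 CPM in Control LNA cells (SD, n = 2 each). DDIT4 rose 1.34-fold, a log2 fold change of 0.42 ± 0.08 (SE; edgeR adjusted p = 0.0076). The call was lost without Control LNA library 1 (0.36, adjusted p = 0.277) and without Control LNA library 2 (0.46, adjusted p = 0.0899). Over 15 alternatives its log2 fold change lay between 0.28 and 0.47 and its adjusted p between 5.45e-08 and 0.277. Of its exonic bases 41.2% are overlapped by the antisense gene DDIT4-AS1, which is not analysed here, so the DDIT4 value is uncertain to that extent.

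DDIT4 is a known target of the stress factor ATF4, and promoter windows were read for the letters ATF4 and MAF bind. Windows from 250 bases before to 50 after the start site were searched for 7 of the 10 genes (RefSeq, GRCh38.p14). Windows of DEPTOR, MLST8 and AKT1S1 were not searched, which does not mean that RefSeq lacks them. The motifs searched, on both strands, were the core of the C/EBP-ATF response element bound by ATF4, TGATGNAA, and the core letters of the MAF recognition element, TGCTGA. The first is in 3.62% of all 35116 promoter windows and the second in 17.3%. Neither was found in the DDIT4 or TSC1 window. The ATF4 core was found in a TSC2 window, 110 bases before the start site, and in no other window of the 7 genes. Among these 7 genes the MAF letters were also found in that TSC2 window alone, 189 bases before the start site on the minus strand. The 100 bases before the start site of DDIT4 (chr10:72273824-72273923, plus strand) and of TSC1 (chr9:132944617-132944716, minus strand) are shown as those of the called genes with a searched window. The stretch of the TSC2 window (chr16:2047849-2047908, plus strand) is shown for the motif, which is in capitals. A match of these letters is a description and not evidence of binding.
DDIT4: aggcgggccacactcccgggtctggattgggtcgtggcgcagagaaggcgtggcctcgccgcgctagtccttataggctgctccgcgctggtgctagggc
TSC1: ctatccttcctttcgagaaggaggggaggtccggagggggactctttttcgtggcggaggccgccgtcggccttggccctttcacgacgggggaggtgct
TSC2: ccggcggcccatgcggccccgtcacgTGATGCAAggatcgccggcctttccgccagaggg

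To set levels of different genes side by side, CPM were divided by exon length in kb. DEPTOR averaged 63.0 CPM per kb over the 4 libraries, at the 95.5th percentile of tested genes, followed by MLST8 at 48.7, DDIT4 at 26.2, MTOR at 21.8 and AKT1S1 at 17.2 CPM per kb. RPTOR and RHEB were close, at 12.8 and 12.6 CPM per kb, and TSC2 was at 9.48, RICTOR at 3.56 and TSC1 at 2.78 CPM per kb. RPTOR was above RHEB in both LINC01432 LNA libraries and below it in both Control LNA libraries, all 8 values lying between 12.0 and 13.7 CPM per kb. DDIT4 and MTOR overlapped in Control LNA cells and were separate in LINC01432 LNA cells. DEPTOR and MLST8 changed places too: MLST8 ranked first in both LINC01432 LNA libraries and DEPTOR ranked first in both Control LNA libraries. The order depends on the length used. With the length of the longest transcript MLST8 was above DEPTOR in both groups (110 against 48.7 CPM per kb in LINC01432 LNA cells, and 89.2 against 79.9 CPM per kb in Control LNA cells). With that length TSC2 averaged 29.1 CPM per kb in LINC01432 LNA cells and 29.6 in Control LNA cells, above AKT1S1, RPTOR and RHEB. DDIT4 then averaged 35.3 CPM per kb against 30.0 for MTOR in LINC01432 LNA cells, and 26.4 against 31.0 in Control LNA cells. In Control LNA cells TSC1 was above RICTOR by that length, at 6.28 and 5.01 CPM per kb.

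The same levels give the ratio of DEPTOR transcripts to those of the proteins it joins. DEPTOR to MTOR stood at 2.25 and 2.19 in LINC01432 LNA libraries, against 3.46 and 3.61 in Control LNA libraries. DEPTOR to RPTOR stood at 3.70 and 3.43 in LINC01432 LNA libraries, against 6.26 and 6.49 in Control LNA libraries. DEPTOR to RICTOR stood at 12.5 and 14.2 in LINC01432 LNA libraries, against 22.2 in each Control LNA library. In each of these ratios both LINC01432 LNA libraries were below both controls. The absolute ratios depend on the length used, while their relative change between groups cannot, because the lengths are the same in every library. With the longest transcript, DEPTOR to MTOR was 1.65 and 1.60 in LINC01432 LNA libraries, against 2.53 and 2.64 in Control LNA libraries. The DEPTOR ratios reuse the DEPTOR values above and add no separate test. RPTOR to RICTOR, a ratio of the scaffolds of both complexes, overlapped between groups, at 3.38 and 4.15 in LINC01432 LNA libraries and 3.55 and 3.42 in Control LNA libraries. TSC1 to TSC2 stood at 0.277 and 0.242 in LINC01432 LNA libraries, against 0.320 and 0.331 in Control LNA libraries. These are RNA ratios, and protein amounts were not measured.

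**Figure D4:**
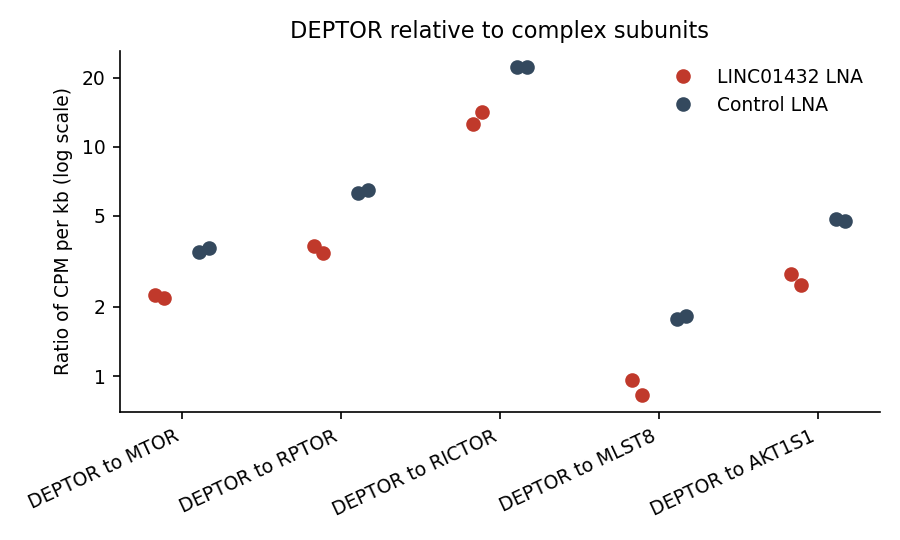
Ratios of per-length levels (CPM per kb of exon) of DEPTOR to 5 genes of the complexes in each library, with LINC01432 LNA left of Control LNA, on a log axis. All 5 ratios are lower in both LINC01432 LNA libraries, with DEPTOR to MTOR at 2.25 and 2.19, against 3.46 and 3.61 in Control LNA libraries.

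The wider pathway was read from 10 lists of genes around the 10 described above, holding 160 genes, of which 154 were tested. In all, 23 were higher and 9 lower in LINC01432 LNA cells, and 122 were not called, a share called of 20.8% with a median log2 fold change of -0.04. The same values over all tested genes were 11.9% and 0.01, and 18.6% of genes with a mean of at least 40 CPM were called. The lists were chosen with earlier results of these data known, so their counts are a description. After GC correction, 20 were higher and 13 lower, where 10.1% of all genes were called. Of these 154 genes, 23 higher became 11 without Control LNA library 1 and 14 without Control LNA library 2, and 9 lower became 3 and 4. Without LINC01432 LNA library 1 they were 41 higher and 35 lower, and without LINC01432 LNA library 2 the lower ones were 32.

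Among 10 partners and assembly factors of the complexes, 2 were higher and 1 lower, with a median of -0.04. That is a share called of 30.0%, where 11.9% of all tested genes were called. MAPKAP1 encodes SIN1, which mTORC2 needs to reach its substrates. It had 74.4 and 74.1 CPM in LINC01432 LNA libraries, against 100 and 95.6 CPM in Control LNA libraries, and fell by 0.40 on the log2 scale (edgeR adjusted p = 0.00661). The call of MAPKAP1 was lost without Control LNA library 1 (-0.38) or 2 (-0.44). PRR5, which encodes the mTORC2 subunit protor-1, and TELO2, a chaperone that helps assemble mTOR and related kinases, were higher by 0.72 (adjusted p = 0.00256) and 0.74 (adjusted p = 0.000172). Both are GC-rich genes, at 62.1% and 66.3%, and after GC correction they stood at 0.46 and 0.25, still called. PRR5 shares 17.8% of its exonic bases with PRR5-ARHGAP8 on the same strand, so its value is uncertain. None of TBC1D7, the remaining TSC complex subunit, RHEBL1 and GSK3B was called (edgeR; log2 fold changes -0.21 to 0.54), and these are the 3 genes of the TSC and RHEB list.

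Of 17 tested genes for stress and energy inputs to mTORC1, 6 were higher and 0 lower, with a median of 0.00 (5 and 0 after GC correction). The share called was 35.3%, where 11.9% of all tested genes were called, 7.5% higher and 4.37% lower. Among genes with a mean of at least 40 CPM, 18.6% were called in either direction. SESN2, a stress-induced protein that senses leucine and restrains mTORC1, had 79.0 and 96.0 CPM in LINC01432 LNA libraries, against 50.4 and 54.8 CPM in Control LNA libraries, a rise of 1.67-fold (edgeR adjusted p = 0.000879). TRIB3, an ATF4-induced pseudokinase that binds AKT, had 122 and 146 CPM in LINC01432 LNA libraries, against 82.3 and 87.9 CPM in Control LNA libraries (1.58-fold, adjusted p = 0.00131). Both were clearly separate between groups, and ATF4 itself, a transcription factor that stressed cells translate preferentially, followed at a smaller size. ATF4 had 300 and 351 CPM in LINC01432 LNA libraries, against 238 and 247 CPM in Control LNA libraries (1.34-fold, adjusted p = 0.0117); its call was lost without Control LNA library 1 (log2 fold change 0.38) or 2 (0.44). DDIT3 (CHOP), with log2 fold change 1.19 at 5.22 CPM or less, shares 39.6% of its exonic bases with neighbouring genes and is uncertain. STK11 (LKB1), the kinase that activates AMPK, was at 0.49 before and 0.03 after GC correction, where it was no longer called. PRKAG2, an AMPK subunit, was at 0.50, and was not called without Control LNA library 1 or 2 (0.50 and 0.47) or with DESeq2 (0.47). The STK11 call was also lost without either control library (0.50 and 0.44). HIF1A and the sensor kinase EIF2AK4 (GCN2) were not called (0.00 and -0.08).

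The amino acid signal reaches mTORC1 through machinery on the lysosome. Of 14 Rag GTPase, Ragulator and folliculin-related genes, 0 were higher and 1 was lower: FNIP2, a partner of folliculin, at 15.2 and 13.5 CPM in LINC01432 LNA libraries, against 23.0 and 20.8 CPM in Control LNA libraries (log2 fold change -0.61, edgeR adjusted p = 0.00311). That is 7.14% of the list, and 13.3% of the next list was called, where 11.9% of all tested genes were. Of 15 GATOR and amino acid sensor genes, 1 was higher and 1 lower. CASTOR2 had 21.6 and 20.3 CPM in LINC01432 LNA libraries, against 33.8 and 33.9 CPM in Control LNA libraries, and fell by 0.69 on the log2 scale (adjusted p = 0.000479); near-identical copies of the gene exist, so its count is uncertain. WDR24, a GATOR2 subunit, rose by 0.65 (adjusted p = 0.000464), and by 0.33 after GC correction; 35.7% of its exonic bases overlap a noncoding gene on the opposite strand.

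Of 23 PI3K and AKT genes, 2 were higher and 3 lower, with a median of -0.08 (3 and 3 after GC correction). In all, 21.7% of the list was called, where 11.9% of all tested genes were. IRS1 and IRS2 encode the adaptors that link the insulin and IGF-1 receptors to PI3K. IRS1 had 14.8 and 13.6 CPM in LINC01432 LNA libraries, against 8.21 and 7.58 CPM in Control LNA libraries (log2 fold change 0.84, edgeR adjusted p = 0.000832). IRS2 had 13.8 and 12.2 CPM in LINC01432 LNA libraries, against 7.11 and 6.07 CPM in Control LNA libraries (0.97, adjusted p = 0.000693). The adaptors were separate between groups in every library, and both were still called after GC correction, at 0.86 each on the log2 scale. PHLPP2, a phosphatase that inactivates AKT, fell by 0.57 (adjusted p = 0.00483), a call lost without Control LNA library 1 (-0.52). The lipid phosphatase INPP5D (SHIP1) and the PI3K catalytic subunit PIK3CB were at -0.31 and -0.36. Neither call held without Control LNA library 1 (-0.37 each) or 2 (-0.28 and -0.37). That of PIK3CB was also lost without LINC01432 LNA library 2 (-0.25) and after GC correction (-0.21). AKT2, FOXO3 and the other genes of the list were not called.

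Of 25 direct substrates and translation factors downstream of mTORC1 and mTORC2, 5 were higher and 3 lower, with a median of -0.07 (3 and 3 after GC correction). This share of the list was larger than that of all tested genes, where 11.9% were called, 7.5% higher and 4.37% lower. It was also larger than the 18.6% called among genes with a mean of at least 40 CPM. NDRG1, whose protein is phosphorylated by the mTORC2-dependent kinase SGK1, had 50.5 and 54.3 CPM in LINC01432 LNA libraries, against 77.0 and 76.5 CPM in Control LNA libraries (log2 fold change -0.55, edgeR adjusted p = 0.00126). SGK1 itself was higher by 0.82 but at no more than 2.89 CPM (adjusted p = 0.0391), and was not called without Control LNA library 1 (0.97) or 2 (0.68). GRB10, an adaptor that mTORC1 stabilises and that dampens insulin signalling, had 1.63 and 2.93 CPM in LINC01432 LNA libraries, against 0.446 and 0.978 CPM in Control LNA libraries. GRB10 was higher by 1.73 (adjusted p = 0.0158), and by 1.22, not called, without Control LNA library 1. EIF4EBP2, a repressor of cap-dependent translation, fell to 140 and 124 CPM in LINC01432 LNA libraries, against 178 and 170 CPM in Control LNA libraries (-0.40, adjusted p = 0.0107). The EIF4EBP2 call was lost without Control LNA library 1 (-0.39) or 2 (-0.44). ULK1 (an autophagy kinase), TFE3 (a lysosomal transcription factor), EIF4A1 and EIF4E (translation initiation factors) completed the called genes, at 0.31, 0.32, 0.65 and -0.30. After GC correction ULK1, TFE3 and EIF4E were at -0.06, 0.17 and -0.14 and not called. ULK1, TFE3 and EIF4E also lost their calls without Control LNA library 1 (0.26, 0.32 and -0.30) or 2 (0.32, 0.29 and -0.33), and ULK1 without LINC01432 LNA library 2 (0.24). EIF4A1, where 48.6% of exonic bases overlap other genes, lost its call without Control LNA library 1 (0.64) or LINC01432 LNA library 1 (0.36). The most abundant members, EEF2 and EIF4G1, were not called (0.15 and -0.06).

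**Figure D5:**
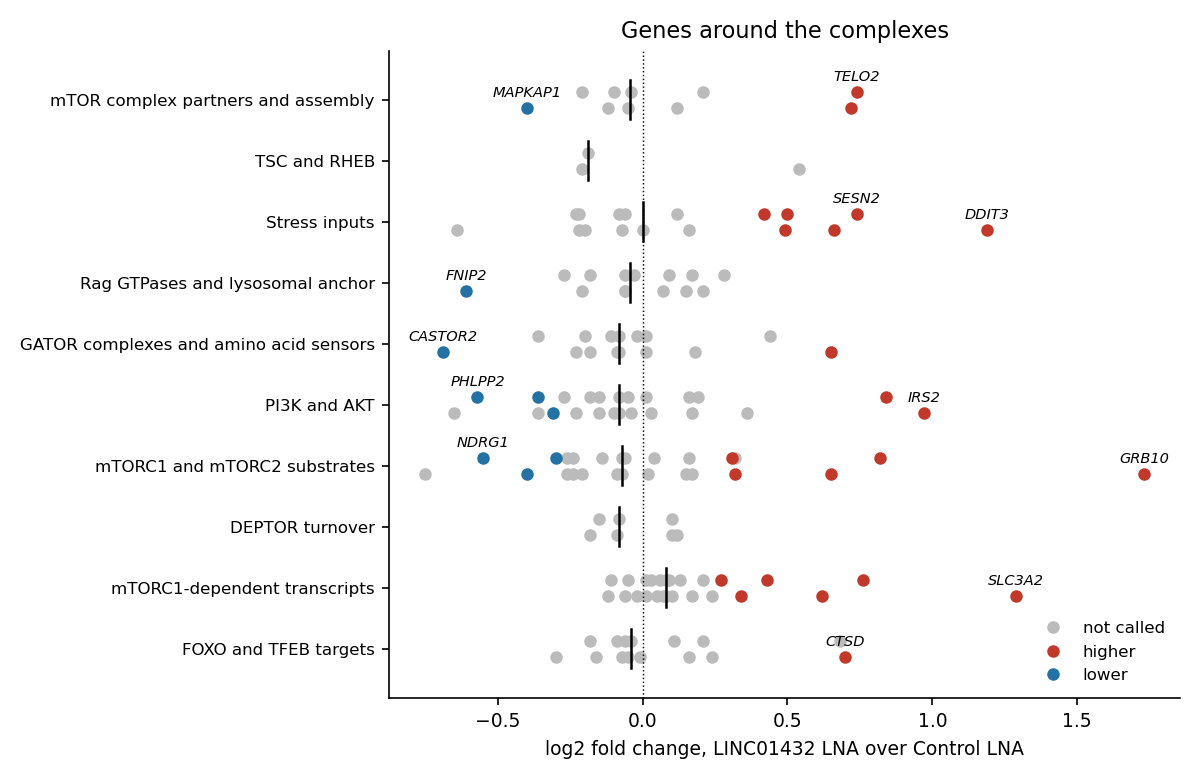
Log2 fold change (LINC01432 LNA minus Control LNA) of every tested gene in the 10 pathway lists, one list per row, with genes called higher in red, called lower in blue and not called in grey, and the list median as a black bar. The stress input and mTORC1-dependent transcript lists each hold 6 genes called higher and 0 called lower. These are 35.3% and 24.0% of their tested genes, where 11.9% of all tested genes were called. The substrate list holds 5 genes called higher and 3 called lower, a share of its tested genes between 24.0% and 35.3%. The list medians run from -0.19 to 0.08, against 0.01 over all genes.

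Of 25 transcripts that depend on mTORC1 activity through SREBP, ATF4 or HIF1A, 6 were higher and 0 lower, with a median of 0.08 (5 and 1 after GC correction). The share called was 24.0%, where 11.9% of all tested genes were called, 7.5% higher and 4.37% lower. SLC3A2, the heavy chain of the amino acid transporters that carry leucine and cystine, had 786 and 959 CPM in LINC01432 LNA libraries, against 357 and 356 CPM in Control LNA libraries. It rose 2.44-fold (edgeR adjusted p = 2.78e-05), the largest change in this list, while its leucine-carrying partner SLC7A5 was not called (log2 fold change 0.17, adjusted p = 0.256). SREBF1, the regulator of lipid synthesis, had 681 and 863 CPM in LINC01432 LNA libraries, against 420 and 491 CPM in Control LNA libraries (log2 fold change 0.76, adjusted p = 0.00183; 0.47 after GC correction). FASN, the fatty acid synthase that SREBF1 controls, was at 0.62 before GC correction and 0.19 after, where it was not called, and also lost its call without Control LNA library 1 (0.55). RPIA, an enzyme of the pentose phosphate pathway, and the angiogenic factor VEGFA were higher by 0.43 and 0.34. These calls were lost without Control LNA library 1 (0.36 each) or 2 (0.47 and 0.29), and RPIA was at 0.27 without LINC01432 LNA library 2. LDHA, a glycolytic enzyme, was not called (-0.12).

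Of 15 FOXO and TFEB targets, which rise when AKT or mTORC1 activity is low, 1 was higher and 0 were lower, with a median of -0.04. This was 6.67% of the list, where 11.9% of all tested genes were called. After GC correction the counts were 0 higher and 3 lower. The gene called higher, the lysosomal protease CTSD, was at 0.70 (edgeR adjusted p = 0.01) and at 0.35 after GC correction, not called, and 52.7% of its exonic bases overlap other genes; without LINC01432 LNA library 2 it was at 0.42. None of the 7 genes that carry out DEPTOR turnover, such as the ubiquitin ligase scaffold CUL1 and the deubiquitinase OTUB1, was called by edgeR (log2 fold changes -0.18 to 0.12). After GC correction 1 of them was called higher.

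DEPTOR is tied in myeloma to the translocation partner genes of the MAF and cyclin D groups. MAF, a transcription factor, had 530 and 478 CPM in LINC01432 LNA libraries, against 556 and 566 CPM in Control LNA libraries. Both LINC01432 LNA libraries were lower, but MAF was not called (log2 fold change -0.15, edgeR adjusted p = 0.293). In the fit without LINC01432 LNA library 1 it was called (-0.25). CCND2 was not called (-0.16), and CCND1 was higher by 0.30 (adjusted p = 0.0304), a call lost without Control LNA library 1 (0.26) or 2 (0.31).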

How the data were processed

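RNA-seq counts of 4 RPMI 8226 libraries were analysed: 2 of LINC01432 LNA and 2 of Control LNA, grouped by their titles. The authors deposited raw whole-number counts for each gene. The submitters' processing notes name bcl2fastq, Salmon 1.10.0, featureCounts 2.0.8, STAR 2.7.11b and the GRCh38 build, without roles or order. Neither the annotation release nor the strand setting is given in the sources used here. The design text names poly(A) selection and the labels' protocols name removal of ribosomal RNA. The table held 78932 gene rows and 97 rows of spike-in and transgene sequences, at most 4.2e-05% of a library, which were left out. Symbols were found for 61481 gene identifiers, and positions, exon lengths and GC content for 57356 (GENCODE 29, GRCh38).

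The test was edgeR 4.0.16's quasi-likelihood F test (R 4.3.3) with TMM scaling, filterByExpr (minimum count 10, minimum total 15), group as the only term, and Benjamini-Hochberg adjustment over 18680 genes; an adjusted p under 0.05 was called. The biological coefficient of variation was 7.13%. Standard errors came from the F statistic. A count of 3 was worth 0.103 to 0.14 CPM; intervals on levels cover the pooled spread between libraries. GC correction subtracted a lowess trend (span 0.3) per library, as offsets. GC content was that of the longest transcript, known for 91.3% of tested genes, and the others were left uncorrected. No pair of libraries agreed within counting noise. The variance was 5.05 times that of counting for the Control LNA pair and 17.6 times for the LINC01432 LNA pair. Between groups it was 25.8 to 52.1 times. The fit was tested on simulated counts.

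Named genes are LINC01432, the 10 genes, called genes of each list (at most 6 by smallest p; SGK1 and ULK1 were added after their values were seen; a few listed genes are not reported here) and up to 2 abundant uncalled genes, the 5 genes nearest to DEPTOR, and genes whose exons overlap the 10; others are marked or were added after their values were seen. The 10 genes and the lists were chosen with earlier results of these data known. Alternatives were other scalings and filters, DESeq2 1.42.0, limma-voom (limma 3.58.1), a block for the replicate number, the removal of each library in turn, GC and exon length corrections, and a fit without mitochondrial, immunoglobulin and structured RNA genes. Promoters came from RefSeq. Figures were drawn with matplotlib 3.10.9.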

Additional observations from a re-analysis of the deposited data

How the results depend on the processing

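Over 15 alternatives DEPTOR was lower and called in all 15, TSC1 and DDIT4 kept their direction and were called in 13, and MLST8 was called in 8. GC correction turned the log2 fold change of MLST8 to -0.08, and to -0.07 with exon length added and -0.08 with the replicate block added. It turned RPTOR to -0.02 and AKT1S1 to -0.02, each the same with the block, and ULK1 to -0.06 (-0.05 with the block, -0.01 with exon length). MTOR was 0.01 with GC and exon length, and RICTOR was -0.01 with DESeq2 and -0.12 to 0.13 leaving out 1 library. After GC correction RICTOR was called with exon length (0.27) and with the block (0.20), and TSC2 with the block (-0.20).

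Of the 10 genes, 2 were higher and 2 lower; the higher ones were 1 with RLE scaling, DESeq2, GC correction or an adjusted p under 0.01, and 0 to 3 leaving out 1 library. The lower ones were 1 at an adjusted p under 0.01, and 1 to 2 leaving out 1 library. Of pathway list genes, 23 higher became 15 with DESeq2, 12 at 0.01, and 11 to 41 leaving out 1 library; 9 lower became 18 with the block, 14 with GC and exon length, 18 with GC and block, 5 at 0.01, and 3 to 35 leaving out 1 library. Of all genes, 1401 higher became 783 with DESeq2, 2245 with the block, 729 at 0.01, and 566 to 2637 leaving out 1 library; 817 lower became 1617 with the block, 1659 with GC and block, 271 at 0.01, and 200 to 2591 leaving out 1 library. With a group down to 1 library, the spread is that of the other pair, and the lone library is assumed to vary alike; the cause of the other shifts was not tested.

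Libraries share only a number: same-numbered libraries deviated together with a correlation of 0.262 over 8998 genes, which with 2 pairs does not establish pairing, and with the replicate block DEPTOR was at -0.72. The block left each of the 51 named genes that were refitted on its side of the threshold. The share of called genes that were higher was 63.2%, and 57.2% after GC correction. For the 6 uncalled genes the 95% intervals of the main fit lay between -0.30 and 0.32 on the log2 scale. These intervals cover the pooled spread between libraries in that fit and not the shifts between ways of processing. RICTOR with GC and exon length was at 0.27, above the upper end of its main interval at 0.23. The intervals therefore do not bound the changes that could be missed.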
